A study of Homo sapiens with 2 samples.

Results

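S100A9 and the other genes of the S100 family were followed in RNA-seq of HAL-01, per its label a human cell line of pre-B acute lymphoblastic leukaemia. The culture called AG was exposed for 24 h to 0.8 mM 1,5-AG, short for 1,5-anhydroglucitol, which resembles glucose. How the other culture, Control, was handled is not stated by the sources used here. The genes were all those whose Ensembl ID maps in GENCODE 29 to a symbol beginning with S100A, S100B, S100P or S100Z. Of 25 such genes in the annotation, 10 had a value in at least 1 library, out of 16145 genes in all. Each group is 1 library, so the differences below were not tested against the spread between cultures.

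S100 proteins are small calcium-binding proteins with a pair of EF hands, and most of them act as dimers. Inside the cell they bind cytoskeletal, membrane and signalling proteins when calcium rises. Some are also released and signal through receptors such as TLR4 and RAGE. S100A9 and its partner S100A8 form calprotectin, which neutrophils and monocytes carry in large amounts in the cytosol. Most S100 genes lie together on the long arm of chromosome 1, in band 1q21, next to the genes of fused-type S100 proteins of the skin.

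S100A9 is the gene on which most of the results turn, and the 250 bases before its start are shown because they hold the letters of a TATA box and of a core bound by a myeloid factor. The gene (ENSG00000163220, protein-coding) lies on the plus strand of chromosome 1 at 153357854 to 153361027 in GRCh38, with 3 exons in the single transcript of GENCODE 29. The promoter window, from RefSeq on GRCh38.p14, is chr1:153357604-153357853 on the plus strand, and capitals mark the motif matches.
S100A9 promoter: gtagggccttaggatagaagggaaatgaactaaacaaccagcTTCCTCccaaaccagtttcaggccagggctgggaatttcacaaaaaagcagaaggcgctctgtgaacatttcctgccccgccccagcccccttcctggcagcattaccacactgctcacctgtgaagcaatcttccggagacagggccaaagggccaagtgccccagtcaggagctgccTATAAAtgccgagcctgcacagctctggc
The matches are TATAAA (the TATA box) beginning 29 bases before the start, at -29, and TTCCTC at -208, the reverse complement of GAGGAA (a core bound by the myeloid factor PU.1). TTGCNNAA, a core bound by C/EBP factors, had no match here. Both strands were searched, and no match overlapped another. Of 35116 promoter windows of this length in RefSeq, 10.7% held TATAAA, 23.6% held GAGGAA and 9.05% held TTGCNNAA on either strand. RefSeq windows were found for 8 of the 10 listed S100 genes, 12 windows in all, of which 5 held TATAAA, 4 held GAGGAA and 1 held TTGCNNAA. A match describes letters only and is no evidence of binding.

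The deposited values are FPKM, that is fragments scaled by gene length and by the library's total, as the authors computed them. The steps between low values implied 14857372 fragments in AG and 16240451 in Control. Intervals below are exact 95% counting intervals from whole fragment numbers recovered from the FPKM. Such an interval holds counting error alone, since fragments are not independent molecules and cultures also vary. Neither file lists a value of 0, so a gene without a value was neither set to 0 nor compared. The label was checked against marker genes. Of 15 precursor B markers 6 were listed in AG and 8 in Control, with median listed levels of 0.233 FPKM in AG and 0.166 FPKM in Control. Of 14 granulocyte and monocyte markers 6 were listed in each, all above 1 FPKM, with summed levels of 365 FPKM in AG and 885 in Control, to which CTSG (cathepsin G) gave 194 in AG and 743 in Control. Without CTSG the sum was 171 FPKM in AG and 142 FPKM in Control. ITGAM, the integrin CD11b, had 8.30 in AG and 1.55 in Control. LYZ and CD33 were also higher in AG, with ratios of 1.37 and 1.23. Like CTSG, MPO and ELANE were lower in AG. MPO had 1.70 FPKM in AG and 4.75 in Control, and ELANE had 41.8 in AG and 47.6 in Control. Of 10 late neutrophil markers 4 were listed in AG and 2 in Control, and 1 (CXCR2) reached 1 FPKM, at 17.3 in AG and 14.2 in Control. NKG7 of the 6 T and NK markers had 10.3 FPKM in AG and 17.2 in Control, KRT10 of the 5 keratinocyte markers had 4.36 in AG and 3.39 in Control, and 0 of the 4 erythroid markers reached 1 FPKM. What part other cell types have in the S100 values was not tested. The marker levels in both libraries thus go against the pre-B label, and the cells are called by their label only. In such bulk samples, a change in the number of cells of a type and a change in RNA per cell cannot be told apart.

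S100A9 had 131 FPKM in AG and 66.3 FPKM in Control, so its level in AG was the higher of the 2. These levels rested on 1119 fragments in AG, with a counting interval of 124 to 139 FPKM, and on 617 fragments in Control, with an interval of 61.2 to 71.7 FPKM. The 2 intervals do not overlap. How many genes had level intervals that do not overlap was not counted. A ratio interval that excludes 1 is a less strict measure. Among 5385 genes with recovered fragments and a mean of at least 1 FPKM, 16.7% had a ratio interval above 1. A further 22.9% had one below 1. The FPKM ratio of AG to Control was 1.98 (95% counting interval 1.80 to 2.19), a log2 ratio of 0.98 on the log2(FPKM + 1) scale. By level, S100A9 ranked 101 of 13351 listed genes in AG and 241 of 13342 in Control.

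The ratio of S100A9 was set beside those of other genes. Among the 5528 expressed genes, that is, genes with a value in both libraries whose mean reached 1 FPKM, its log2 ratio ranked 70 from the top. Of the 139 genes with a mean level at or above that of S100A9, 3 had a log2 ratio at least as high, itself included. The others were GRN (progranulin, a secreted growth factor of myeloid cells), at 152 FPKM in AG and 70.6 in Control, and SCD (stearoyl-CoA desaturase, which makes monounsaturated fatty acids), at 235 in AG and 118 in Control. By a 1.5-fold threshold, 4 of these 139 were higher in AG, S100A9 included, and 3 were lower, shares near the 3.6% higher and 3.33% lower of all expressed genes.

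S100A12, or calgranulin C, another calcium-binding protein of neutrophils, encoded 17.8 kb from the start of S100A9, was near the lower end of the listed values. It had 0.139 FPKM in AG and 0.127 FPKM in Control, from a single fragment in each library (1 and 1). No difference could be detected at this depth, with a ratio of 1.09 and a counting interval of 0.0139 to 85.8. S100A8, the partner of S100A9 in calprotectin, was not analysed here, so these data give no ratio of the calprotectin subunits.

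S100A6 (calcyclin, which binds CACYBP and annexins) was the other abundant S100 gene, and it differed little between the libraries. It had 89.5 FPKM in AG (1291 fragments) and 84.4 FPKM in Control (1331 fragments). The FPKM ratio was 1.06, and its counting interval of 0.981 to 1.15 includes 1. The gene (ENSG00000197956) lies on the minus strand of chromosome 1 at 153534599 to 153536244. An antisense gene, BX470102.1, overlaps its 3′ end and was listed in AG only, at 0.380 FPKM, and whether the counting used strand is not stated by the sources used here.

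The order of the leading S100 genes by FPKM differed between the libraries. This order depends on the gene lengths behind the FPKM, 573 bases for S100A9 and 971 for S100A6, which the intervals do not cover. By fragments, S100A6 was above S100A9 in both libraries, with 1291 against 1119 in AG and 1331 against 617 in Control. In AG, S100A9 was above S100A6, with counting intervals of 124 to 139 FPKM for S100A9 and 84.7 to 94.5 FPKM for S100A6. In Control, S100A9 was below S100A6, with intervals of 61.2 to 71.7 FPKM for S100A9 and 79.9 to 89.1 FPKM for S100A6. The ratio of S100A9 to S100A6 was 1.47 in AG and 0.786 in Control. The first was 1.87 times the second (95% counting interval 1.65 to 2.12), a quantity that does not depend on the library totals or the gene lengths. Over the 3 expressed S100 genes together, the summed level was 226 FPKM in AG and 152 FPKM in Control, of which S100A9 made up 58.1% in AG and 43.7% in Control.

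S100P, which binds ezrin and is best known from placenta and from epithelial tumours, had the largest ratio among the S100 genes listed in both libraries. It had 5.43 FPKM in AG (114 fragments) and 1.18 FPKM in Control (27 fragments), with counting intervals of 4.48 to 6.52 FPKM in AG and 0.775 to 1.71 FPKM in Control. These 2 intervals do not overlap. The counting interval of the ratio is a less strict measure. Among expressed genes with recovered fragments, it lay above 1 in 16.7% and below 1 in 22.9%. The FPKM ratio was 4.62 (3.01 to 7.31), and the log2 ratio of 1.56 on the log2(FPKM + 1) scale ranked 16 of 5528 from the top. The fragment numbers of S100P imply a gene length of 1413 bases, against 1280 exonic bases in GENCODE 29. With the next lower pair that fits the FPKM values, 76 fragments in AG and 18 in Control, the interval would be 2.73 to 8.20. With the lowest such pair, 38 fragments in AG and 9 in Control at a length of 471 bases, it would be 2.19 to 10.9. S100P (ENSG00000163993) lies outside the cluster, on the plus strand of chromosome 4 at 6693069 to 6697170.

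**Figure D1:**
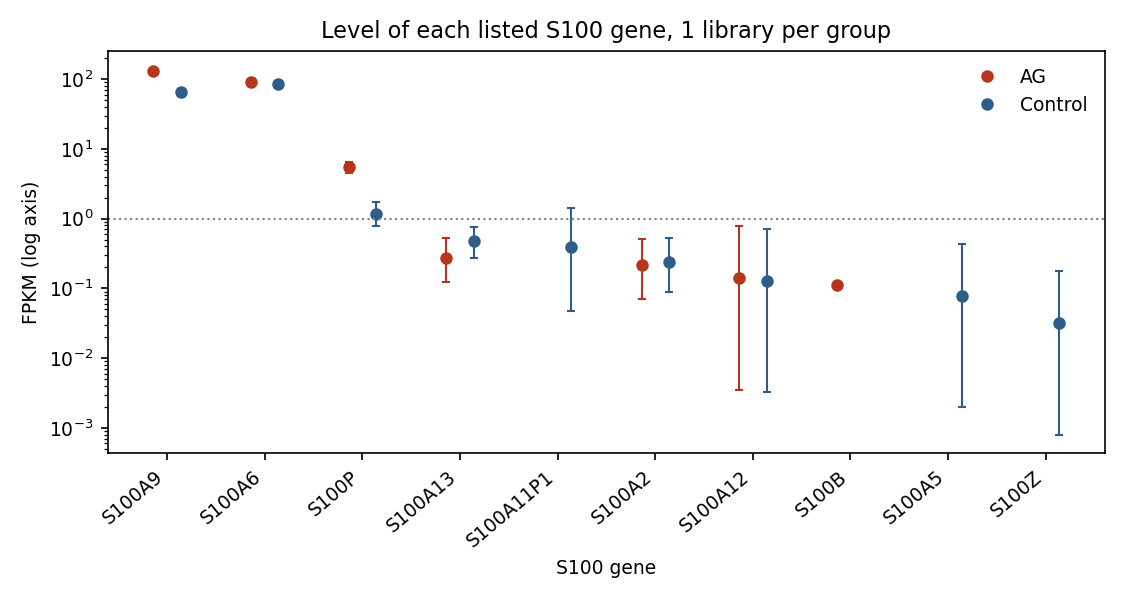
Level of each of the 10 listed S100 genes in FPKM on a log axis, with AG left of Control; bars are 95% counting intervals from recovered fragments (none was recovered for S100B), and the dotted line marks 1 FPKM. S100A9, S100A6 and S100P are above the line in both libraries, and a gene without a point in a library was not listed there.

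The other listed S100 genes were all below 1 FPKM. S100A13, which takes part in the release of FGF1, had 0.273 FPKM in AG (9 fragments) and 0.472 FPKM in Control (17 fragments), a ratio of 0.579 with a counting interval of 0.227 to 1.37. It overlaps AL162258.1 on the same strand and S100A1 on the opposite strand, so its reads are uncertain. S100A2, a nuclear S100 protein of epithelia that binds p53, had 0.218 FPKM in AG (5 fragments) and 0.239 FPKM in Control (6 fragments), a ratio of 0.911 with an interval of 0.220 to 3.58. For S100A13, S100A2 and S100A12 the interval includes 1, and a difference was not detectable at this depth.

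Of the remaining 4, each had a value in 1 library only. S100B, an abundant protein of astrocytes, was listed in AG at 0.112 FPKM, and its whole fragment number was not recovered. In Control, S100A5 was listed at 0.0785 FPKM and S100Z at 0.0315 FPKM, from 1 fragment each, and the pseudogene S100A11P1 at 0.395 FPKM from 2 fragments. Reads of this pseudogene on chromosome 7 cannot be told with certainty from those of its parent S100A11. The 15 S100 genes of the annotation without a value in either library, S100A4, S100A8, S100A10 and S100A11 among them, were not analysed here.

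In AG, the order below S100P was S100A13, S100A2, S100A12 and S100B. In Control it was S100A13, S100A11P1, S100A2, S100A12, S100A5 and S100Z. The counting intervals of S100P and S100A13 did not overlap in either library. Below S100A13, neighbours in either order overlapped, except that S100B has no interval.

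**Figure D2:**
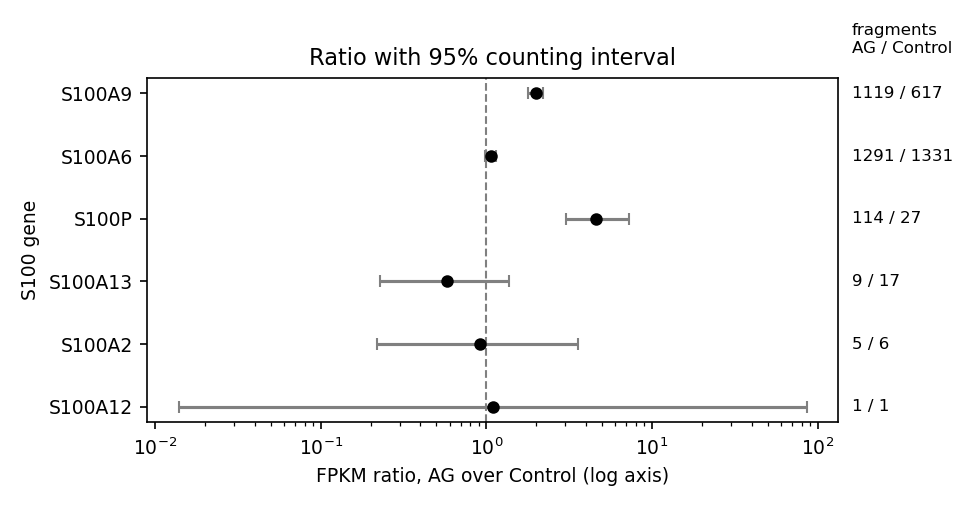
FPKM ratio of AG over Control on a log axis for the 6 S100 genes listed in both libraries, with 95% counting intervals and, at the right, the fragments in AG and in Control. The intervals of S100A9 (1.80 to 2.19) and S100P (3.01 to 7.31) lie above 1 and the other 4 include 1.

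As a family, the S100 genes that could be compared were few. The 3 whose mean reached 1 FPKM were S100A9, S100A6 and S100P, and each was above 1 FPKM in both libraries. Of these, 2 passed 1.5-fold upward in AG on the log2(FPKM + 1) scale, and 0 passed it downward. By the same rule 3.6% of all 5528 expressed genes were higher in AG and 3.33% were lower. At 2-fold 1 of the 3, S100P, was higher, against 1.18% of expressed genes higher and 0.886% lower. By the counting interval alone 2 of the 3 lay above 1 and 0 below, against 16.7% above and 22.9% below among 5385 expressed genes with recovered fragments. The median log2 ratio was 0.98 for the 3 S100 genes, which is the value of S100A9, and -0.03 for all expressed genes. Over all 6 S100 genes listed in both libraries the median was 0.05, and 3 of these had at most 17 fragments in a library.

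**Figure D3:**
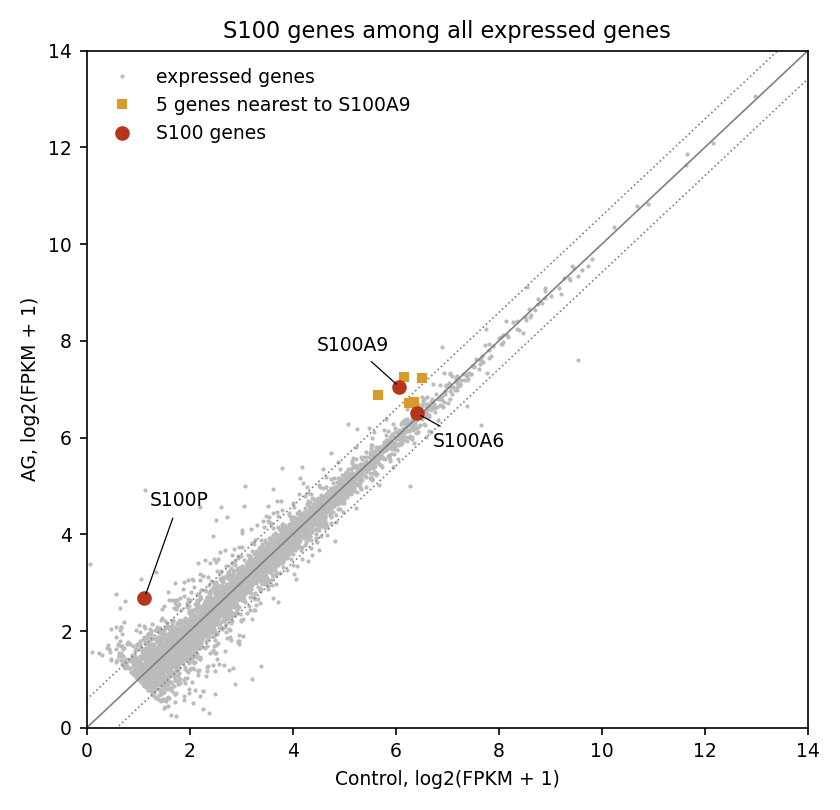
Levels of the 5528 expressed genes as log2(FPKM + 1), AG on the vertical and Control on the horizontal axis, with the line of equal level and dotted lines at 1.5-fold. S100A9 and S100P lie above the upper dotted line, S100A6 lies close to the line of equal level, and squares mark the 5 protein-coding genes nearest to S100A9.

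The protein-coding genes with the levels closest to those of S100A9 in both libraries were GRN, LYZ, MRPL41, TREM2 and CITED4. Likeness was the Euclidean distance on log2(FPKM + 1) over the 2 libraries, among 4441 genes. GRN was the closest, at a distance of 0.23. LYZ, which encodes lysozyme, had 104 FPKM in AG and 75.6 in Control (distance 0.39). MRPL41, a protein of the mitochondrial ribosome, had 106 in AG and 80.6 in Control (0.41). TREM2, a lipid-sensing receptor of macrophages, had 117 in AG and 49.6 in Control (0.44), and CITED4, a transcriptional coactivator, had 150 in AG and 90.2 in Control (0.48). The FPKM ratios of these genes ran from 1.32 for MRPL41 to 2.36 for TREM2. They were chosen for levels close to those of S100A9 in both libraries, so a likeness in ratio follows from the choice.

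Receptors of S100 proteins and the signalling proteins behind them had no member past 1.5-fold with the pseudocount of 1 FPKM. Of 16 genes on this list, 7 were expressed, and 0 passed 1.5-fold on the log2(FPKM + 1) scale in either direction, against 6.93% of all expressed genes, so a count of 0 among 7 is near the background. The median log2 ratio was 0.28, and 5 of the 7 were above 0. BSG (basigin, a receptor for S100A9) had 136 FPKM in AG and 152 in Control. IRAK1, a kinase of Toll-like receptor signalling, had 113 in AG and 90.2 in Control, and DIAPH1, a formin that binds the tail of RAGE, had 37.5 in AG and 45.9 in Control. Chosen after their values were seen, TLR4, a receptor for calprotectin, had 5.54 FPKM in AG and 4.04 in Control (ratio 1.37), and CD36, a scavenger receptor, had 3.56 in AG and 2.17 in Control. The plain FPKM ratio of CD36 was 1.64 (95% counting interval 1.44 to 1.87), and it passed 1.5-fold with a pseudocount of 0.1 FPKM. AGER, which encodes RAGE, was not analysed here. LY96, the partner of TLR4, was listed in AG only, at 0.602 FPKM.

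Intracellular partners of S100 proteins differed little. Of 24 genes, 8 were expressed and 0 passed 1.5-fold, near the 6.93% of all expressed genes. The median log2 ratio was -0.02, with values from -0.19 to 0.23. MYH9, the non-muscle myosin heavy chain, had 145 FPKM in AG and 152 in Control. CACYBP, the calcyclin-binding protein, had 51.9 in AG and 54.0 in Control, and the annexin ANXA6 had 42.3 in AG and 40.5 in Control. The FPKM ratio was 0.962 for CACYBP and 1.05 for ANXA6, beside 1.06 for S100A6, which binds both.

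Of 11 transcription factors of myeloid cells, 4 were expressed, of which 1 was higher in AG by 1.5-fold or more and 0 lower, against 3.6% higher and 3.33% lower of all expressed genes (median log2 ratio 0.00). The higher one was CEBPB, a C/EBP family member of monocytes and of stress responses, at 9.63 FPKM in AG and 4.25 in Control, a ratio of 2.26 (95% counting interval 1.82 to 2.82). MYB, a factor of progenitor cells, had 69.3 FPKM in AG and 99.2 in Control, a log2 ratio of -0.51. IRF8, a factor of the monocyte lineage, had 196 in AG and 189 in Control, and RUNX1 had 19.4 in AG and 20.4 in Control. CEBPE was listed in AG only, at 1.70 FPKM, and was not compared. CEBPA and SPI1, which encodes PU.1, were not analysed here. Of the 6 genes of the phagocyte oxidase, to which S100A8 and S100A9 deliver arachidonic acid, CYBB alone was expressed, at 2.74 FPKM in AG and 1.25 in Control, a ratio of 2.19 (1.69 to 2.85). With a pseudocount of 5 FPKM its log2 ratio was 0.31, which is under 1.5-fold.

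Other EF-hand proteins are given as a comparison. Of 31 genes on this list, 11 were expressed and 10 of these did not pass 1.5-fold, beside 6.93% of all expressed genes that did (median -0.04 on the log2 scale). CAPNS1, the small subunit of calpain, was the most abundant of those reported here, at 42.4 FPKM in AG and 45.6 in Control, a log2 ratio of -0.10.

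**Figure D4:**
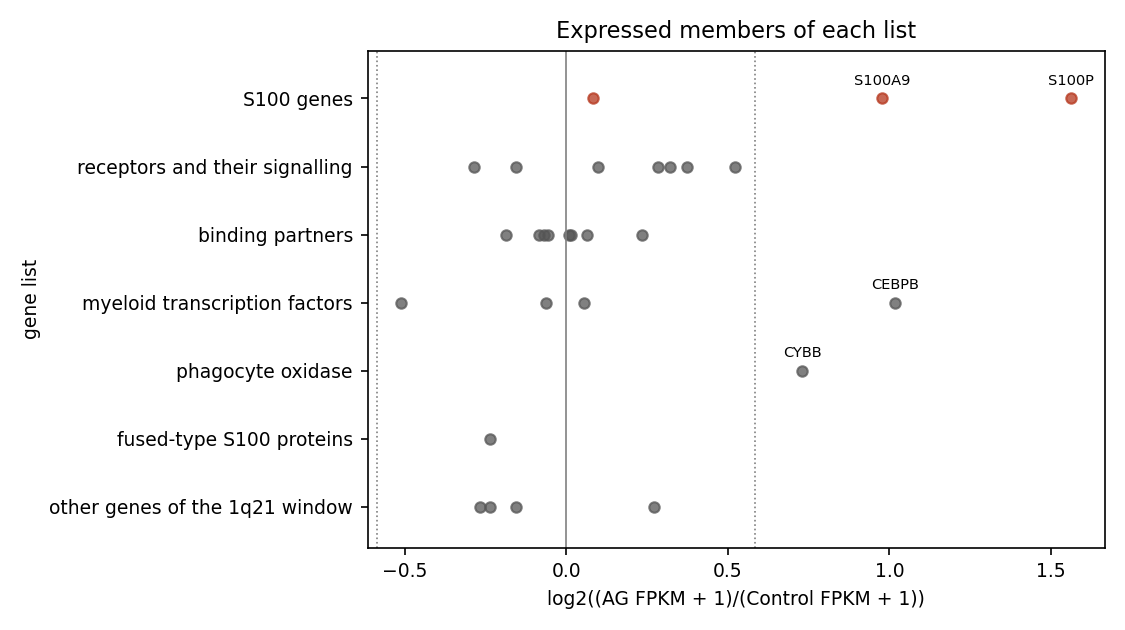
Log2 ratio of AG over Control, on the log2(FPKM + 1) scale, of each expressed member of the S100 family and of 6 lists, with the other EF-hand proteins left out; dotted lines mark 1.5-fold. S100A9, S100P, CEBPB and CYBB lie past the upper line and 0 genes lie past the lower line.

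Few neighbours of S100A9 on chromosome 1 outside the S100 family could be compared. The window from 200 kb before the first to 200 kb after the last S100A gene of 1q21 (151782915 to 153832039, GRCh38) holds 119 annotated genes, 100 of them outside the S100 rule. Of these 100, 7 were listed in both libraries and 4 were expressed, with 0 past 1.5-fold in either direction (median log2 ratio -0.20), a count near the 6.93% of all expressed genes. SNAPIN, a protein of vesicle fusion, lies 301 kb from the start of S100A9 and had 22.5 FPKM in AG and 25.2 in Control. GATAD2B, a subunit of the NuRD complex, had 1.61 in AG and 2.14 in Control, and SLC27A3, a fatty acid transport protein, had 2.07 in AG and 1.54 in Control. Of the 7 fused-type S100 genes 1 was expressed, TCHH (trichohyalin), at 1.16 FPKM in AG and 1.55 in Control. HRNR and FLG, the hornerin and filaggrin genes, were far lower. HRNR had 0.0140 FPKM in AG and 0.0320 in Control, and FLG had 0.00526 in AG and 0.00963 in Control, from at most 5 fragments in a library.

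**Figure D5:**
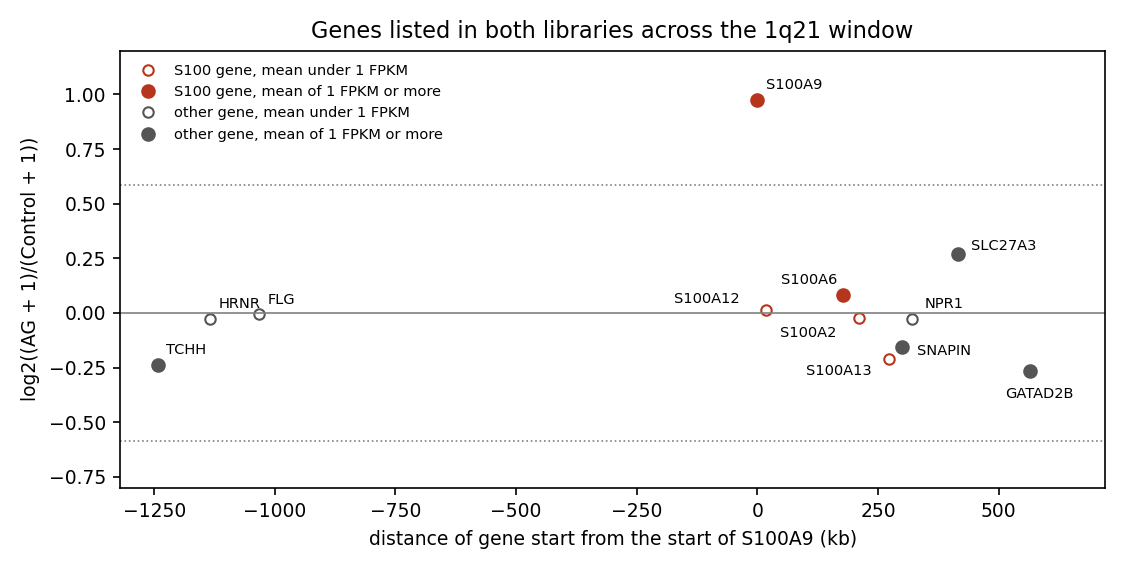
Log2 ratio of AG over Control, on the log2(FPKM + 1) scale, of the 12 genes listed in both libraries across the 1q21 window, against the distance of the gene start from the start of S100A9 in kb; filled points have a mean of at least 1 FPKM and dotted lines mark 1.5-fold. S100A9 is the only one of the 12 past 1.5-fold.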

How the data were processed

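RNA-seq of 2 cultures was analysed, 1 labelled AG and 1 labelled Control. Libraries were made with a stranded mRNA kit, per the labels' protocols. The deposited values are FPKM computed by the authors. The tools named, per the submitters' processing notes, are HISAT2, HTSeq, Cufflinks and Trimmomatic, with the build hg38. Annotation release, strand setting and filters are not stated by the sources used here.

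IDs were matched to GENCODE 29 (97.1% of 16145). Library totals were recovered from FPKM steps of single-transcript genes, where FPKM times exon length was whole within 0.01 fragments in 88.1% of genes in AG and 88.4% in Control. Fragment pairs were recovered for 97.4% of 5528 expressed genes, and give exact Clopper-Pearson intervals of ratios and exact Poisson intervals of levels, at 95%. Changes are given as log2((AG FPKM + 1)/(Control FPKM + 1)), which understates the change of low genes. With 1 library per group there was no test.

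Members and lists were chosen with earlier results of these data known. Named were all listed S100 genes, the 3 most abundant members of each list with those past 1.5-fold, and the 5 genes nearest to S100A9, with CEBPA, CEBPB and SPI1. Some genes named by it are not reported here. The steps were tested on simulated data. Alternatives tried were 2 other pseudocounts (0.1 and 5 FPKM), 2 other filters, 2 scalings, a 2-fold threshold, counting intervals and protein-coding genes only. Work was done in Python 3.11.15 with pandas 2.3.3, scipy 1.17.1, numpy 2.4.6 and, for figures, matplotlib 3.10.9.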

Additional observations from a re-analysis of the deposited data

How the results depend on the processing

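The S100A9 log2 ratio lay between 0.94 and 1.01 under every alternative run for it, against 0.98 as reported. S100P had 0.76 with a pseudocount of 5 FPKM and 2.12 with one of 0.1 FPKM. With a minimum mean of 5 FPKM, S100P drops out, so 1 S100 gene was higher (S100A9), and the median was 0.53. At 2-fold 1 was higher (S100P), because S100A9 is at 1.97-fold on the log2(FPKM + 1) scale. The S100 median was 0.7559 with a pseudocount of 5 FPKM and 0.049 when low genes were kept. The count of S100 genes lower in AG was 0 under every alternative run.

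Among the lists, 1 receptor gene (CD36) passed 1.5-fold with a pseudocount of 0.1 FPKM, and at 2-fold the oxidase and other EF-hand lists had 0 genes past the threshold. CYBB had 0.31 with a pseudocount of 5 FPKM, under 1.5-fold. Counting genes whose interval excludes 1, which 16.7% of expressed genes did above 1 and 22.9% below, gave 6 receptor genes, 3 binding partners, 4 transcription factors, 6 other EF-hand genes, 1 fused-type gene and 3 other genes of the 1q21 window. This rule asks for no minimum fold. Scaling by the median of ratios moved the median of all genes by less than 0.1 on the log2 scale. No paired analysis was possible because each group has 1 library. Depth limits S100A13, S100A2 and S100A12, at 1 to 17 fragments. S100P and the named genes other than S100A9 were recomputed singly by choice made after seeing the data.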
